A study of Homo sapiens with 3 samples.

Results

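The genes described are 7 cadherins and the filament gene VIM: CDH1, CDH2, CDH3, CDH4, CDH6, CDH11, CDH13 and VIM. They were taken by symbol from a table of 50867 genes, in which each of the 8 symbols has 1 row. Messenger RNA of the established bladder cancer line UM-UC-3 (human) was sequenced in 3 libraries. Cells of the control library (group shControl, n = 1) carried a lentiviral scramble short hairpin RNA. Cells of the other 2 libraries (group shBLACAT2, n = 2) carried a hairpin targeting BLACAT2, a long non-coding RNA, either shRNA 1 or shRNA 2, with 1 library for each. All 3 were infected with polybrene, selected with puromycin into stable lines and grown in serum-containing medium, and no uninfected cells are among them. No repeated cultures are named, so p-values measure only the spread between these libraries, in which hairpin, selection and library preparation cannot be told apart.

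Cadherins are calcium-dependent adhesion proteins whose extracellular repeats bind cadherins of neighbouring cells and whose cytoplasmic tails bind catenins, which link them to actin. Epithelial cells hold together mainly through E-cadherin (CDH1) and, in basal layers, P-cadherin (CDH3), whereas mesenchymal cells carry N-cadherin (CDH2) or OB-cadherin (CDH11) together with the intermediate filament protein vimentin (VIM). Replacement of E-cadherin by N-cadherin is a classical mark of epithelial to mesenchymal transition, and bladder cancer lines are known to differ widely in it.

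The libraries held 16424422 (control), 17670199 (shRNA 1) and 16216947 (shRNA 2) counts, and the mitochondrial share was 3.88%, 4.58% and 2.51%. BLACAT2, listed as LINC00958, had 938, 816 and 1062 counts. After scaling it stood at 73.5% of the control with shRNA 1 (95% counting interval of the ratio 0.668 to 0.808) and at 99.6% with shRNA 2 (0.911 to 1.09), so depletion of the target was not seen in the library labelled shRNA 2. Directions below therefore belong to the libraries as labelled. Of 13 urothelial markers, 10 were tested, and 2 uroplakin genes, UPK1B (306, 2311 and 923 counts) and UPK2 (35, 108 and 104), were higher by 2-fold or more in both hairpin libraries. None was lower by that size and none passed edgeR's test, while DESeq2 passed UPK1B (adjusted p = 0.00899). Of all genes tested, 5.29% were higher by that size in both hairpin libraries, and DESeq2 passed 3.51% (1.57% higher). KRT20 had no count in any library, and KRT7 had 19944, 20236 and 13229 counts. Summed over that list, the level was 3510, 4268 and 2329 CPM (counts scaled to a common library size by edgeR's TMM method), most of it keratins. The median log2 fold of the tested markers was 0.49 with shRNA 1 and −0.36 with shRNA 2, so they did not share a direction. KRT5, named after its values were seen, had 5590, 6605 and 1707 counts (log2 fold −1.90 with shRNA 2).

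Of the 8 genes, 4 (CDH2, CDH11, CDH6 and VIM) were at least 2-fold lower in both hairpin libraries and 1 (CDH1) was at least 2-fold higher in both. Among all 15132 genes tested, 4.5% were lower and 5.29% higher by that rule, 9.79% in either direction. The same 4 and the same 1 passed 2-fold with each hairpin alone, where 7.38% of genes were lower and 7.92% higher with shRNA 1, and 8.76% lower and 13% higher with shRNA 2. CDH3 was higher in both by less than 2-fold, and CDH4 and CDH13 lay on opposite sides of the control with the hairpins. The median log2 fold of the 8 genes was −1.63 with shRNA 1 and −2.74 with shRNA 2, against 0.01 and 0.04 for all genes tested. The genes were chosen with earlier results of these data known, so these counts and medians describe them and test nothing. All 8 averaged at least 1 CPM and entered the test. None passed edgeR's quasi-likelihood test of both hairpin libraries against the control after Benjamini-Hochberg adjustment over all genes, which called 0.0397% of genes, all of them lower. Without adjustment 4 of the 8 (CDH1, CDH2, CDH11 and VIM) had p below 0.05, as had 10.2% of genes. DESeq2 passed 2 of the 8, CDH2 and CDH11, both lower, and 3.51% of all genes (1.94% lower), while limma-voom passed none of the 8 and no other gene. The test has 1 residual degree of freedom, and it takes the spread of the control from that of the hairpin libraries.

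**Figure D1:**
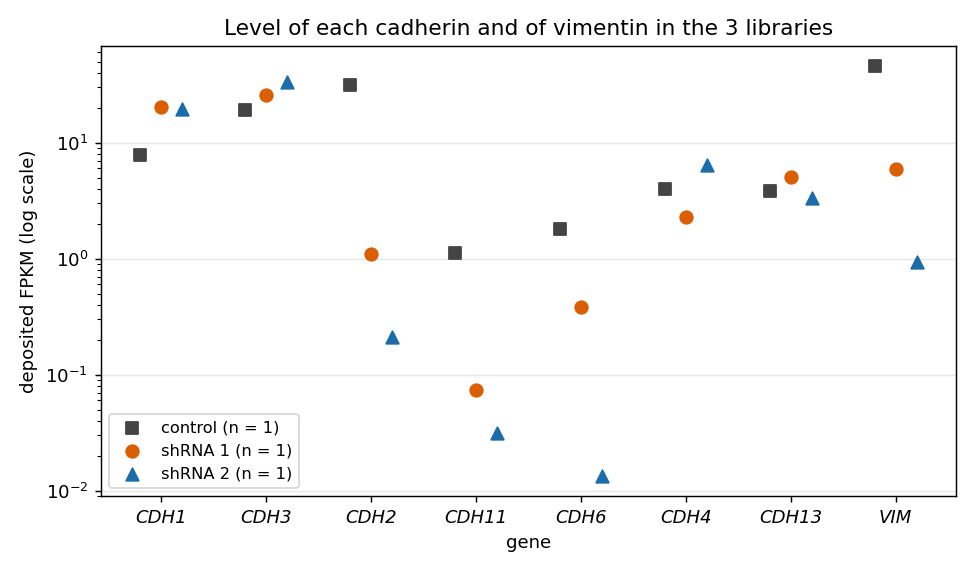
Deposited FPKM on a log scale for each gene, with 1 marker for the control (square), shRNA 1 (circle) and shRNA 2 (triangle) library. CDH2, CDH11, CDH6 and VIM stand highest in the control, at 31.2, 1.11, 1.81 and 45.5, while CDH1 and CDH3 stand lowest there, at 7.90 and 19.1.

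CDH1 (ENSG00000039068; hg38, chromosome 16, 68737225 to 68835548, plus strand) encodes E-cadherin, the main adhesion protein of epithelial adherens junctions. The control held 1877 counts, the shRNA 1 library 5201 and the shRNA 2 library 4565. Its FPKM (fragments per kilobase of gene length, scaled to library size) was 7.90, 20.3 and 19.5 in the same order. Both hairpin libraries were high and close to each other, and the control was low. The scaled ratio to the control was 2.34 with shRNA 1 (95% counting interval 2.22 to 2.47) and 2.14 with shRNA 2 (2.03 to 2.26), a mean log2 fold of 1.16 ± 0.09 (SD, n = 2). The difference from the control exceeded that between the hairpins, 0.13, but edgeR's adjusted p was 0.340. The control was not without E-cadherin RNA: its CDH1 FPKM lay at percentile 75.3 of all genes tested there, against 90.9 and 90.3 in the hairpin libraries.

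CDH3 (ENSG00000062038; chromosome 16, 68636189 to 68722616, plus strand) encodes P-cadherin of basal epithelial layers. It is the upstream neighbour of CDH1 on the same strand, and 14608 bases separate them. Its counts were 2947, 4307 and 5077 in the same order of libraries, or 19.1, 25.9 and 33.3 FPKM. The control was again the lowest library, and the hairpin libraries stood in the opposite order to CDH1. Ratios were 1.24 (1.18 to 1.29) and 1.52 (1.45 to 1.59), with a mean log2 fold of 0.45 ± 0.21 (SD, n = 2) and an edgeR adjusted p of 0.802. Of 18 other tested genes within 500 kb of this pair, none was at least 2-fold away from the control in the same direction with both hairpins. Their median log2 folds were −0.08 and −0.01. With shRNA 2 alone 1 of them, SMPD3, stood above CDH1, at 1.57 against −0.44 with shRNA 1; it was named after its values were seen.

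CDH2 (ENSG00000170558; chromosome 18, 27950966 to 28177446, minus strand) encodes N-cadherin, the adhesion protein of neural and mesenchymal cells. The control held 3277 counts, the shRNA 1 library 125 and the shRNA 2 library 22, or 31.2, 1.11 and 0.212 FPKM. The control alone was high, and the hairpin libraries differed from each other as well. CDH2 was 31.0-fold lower with shRNA 1 (ratio 0.0322, interval 0.0267 to 0.0385) and 169-fold lower with shRNA 2 (ratio 0.00590, interval 0.00370 to 0.00896). Among all genes tested, its FPKM lay at percentile 95.2 in the control and at 25.9 and 3.93 with the hairpins. The mean log2 fold was −6.10 ± 1.66 (SD, n = 2), larger than the gap of 2.34 between the hairpins. edgeR gave a log2 fold of −5.71 (SE 0.87) and an adjusted p of 0.0979, and DESeq2 an adjusted p of 2.6e-13; over all tests run it ranged up to 0.747.

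CDH11 (ENSG00000140937; chromosome 16, 64943753 to 65126112, minus strand) encodes the type II cadherin of osteoblasts and fibroblasts. Its counts were 324 (control), 23 (shRNA 1) and 9 (shRNA 2), or 1.11, 0.0736 and 0.0314 FPKM. It reached the filter of 1 CPM mostly through the control. Ratios to the control were 0.0600 (0.0375 to 0.0916) and 0.0244 (0.0111 to 0.0470), 16.7-fold and 40.9-fold lower. The control stood apart from both hairpin libraries, whose own ratio (shRNA 2 over shRNA 1) was 0.407 with an interval of 0.166 to 0.914. With edgeR the adjusted p was 0.0886, the smallest among the 8 genes, and with DESeq2 2.5e-06; over all tests run it ranged up to 0.747. CDH11 lies on chromosome 16 like CDH1, CDH3 and CDH13 and was low where CDH1 was high.

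CDH6 (ENSG00000113361; chromosome 5, 31193750 to 31329146, plus strand) encodes K-cadherin, a type II cadherin of the fetal kidney. Counts of 409 (control), 94 (shRNA 1) and 3 (shRNA 2) gave 1.81, 0.387 and 0.0135 FPKM. The order was the same as for CDH2 and CDH11, with the largest gap between the hairpin libraries of the 8 genes. The ratio to the control was 0.194 (0.154 to 0.244) with shRNA 1 and 0.00645 (0.00132 to 0.0190) with shRNA 2, where 3 counts carry the estimate. The mean log2 fold of −4.43 ± 2.96 (SD, n = 2) was close in size to the gap between the hairpins, 4.19, and edgeR's adjusted p was 0.508. Unlike the ratios, these log2 folds include a prior count of 2, which draws the fold resting on 3 counts towards that of the control. With a prior count of 0.5 the mean was −4.70 ± 3.32 (SD, n = 2).

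CDH4 (ENSG00000179242; chromosome 20, 61252426 to 61940617, plus strand), the retinal type I cadherin, had 548 (control), 340 (shRNA 1) and 881 (shRNA 2) counts, or 3.97, 2.29 and 6.46 FPKM. The control lay between the hairpin libraries. Ratios were 0.524 (0.457 to 0.601) and 1.41 (1.27 to 1.58), each outside counting error, and the hairpin libraries differed from each other by 2.70-fold (2.38 to 3.07).

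CDH13 (ENSG00000140945; chromosome 16, 82626803 to 83800640, plus strand) encodes T-cadherin, which is anchored to the membrane by a lipid and has no cytoplasmic tail for catenins. Its counts of 975, 1383 and 836 gave 3.81, 5.02 and 3.31 FPKM, again with the control between the hairpin libraries. Ratios were 1.20 (1.10 to 1.30) and 0.754 (0.687 to 0.828). The mean log2 folds of CDH4 (−0.21 ± 1.01, SD, n = 2) and CDH13 (−0.07 ± 0.47, SD, n = 2) were smaller than their spread, and edgeR's adjusted p was 0.990 and 0.987. Among all genes tested 28.8% likewise had folds of opposite sign with the hairpins.

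VIM (ENSG00000026025; chromosome 10, 17228259 to 17237593, plus strand) encodes vimentin, the intermediate filament protein of mesenchymal cells. Counts of 7583 (control), 1061 (shRNA 1) and 154 (shRNA 2) gave 45.5, 5.91 and 0.935 FPKM. The 3 libraries were well separated, with the control highest and shRNA 2 lowest. VIM was 8.46-fold lower with shRNA 1 (ratio 0.118, interval 0.111 to 0.126) and 56.0-fold lower with shRNA 2 (ratio 0.0179, interval 0.0151 to 0.0210). Its FPKM percentile among genes tested was 96.9, 66.3 and 20.4. The mean log2 fold of −4.43 ± 1.92 (SD, n = 2) exceeded the gap between the hairpins, 2.71, and edgeR gave −3.88 (SE 0.98) with an adjusted p of 0.245.

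**Figure D2:**
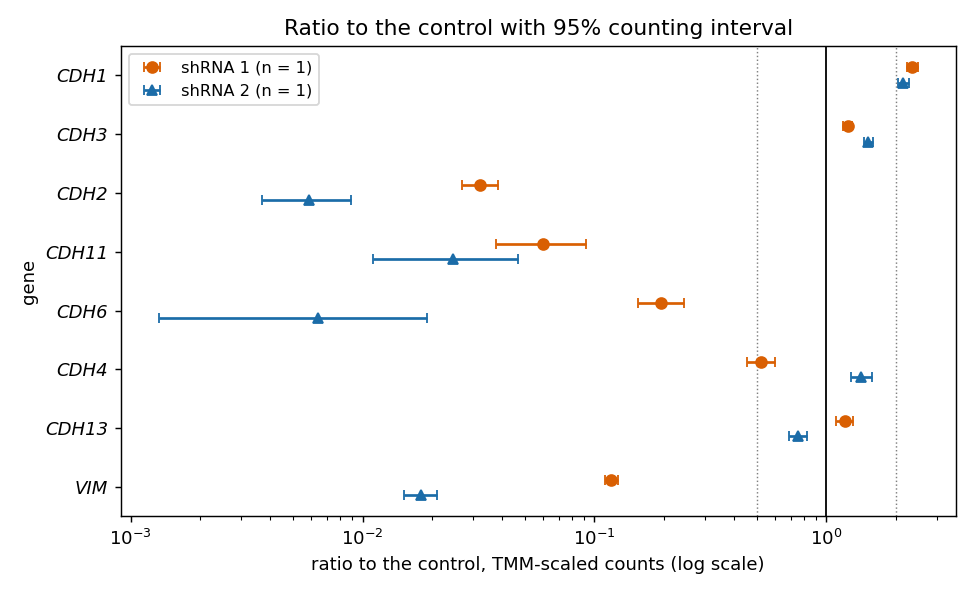
Ratio of TMM-scaled counts to the control on a log scale for shRNA 1 (circles) and shRNA 2 (triangles), with 95% counting intervals as bars and dotted lines at 2-fold. CDH2 lies at 0.0322 and 0.00590 and VIM at 0.118 and 0.0179, CDH1 lies above 2 with both hairpins, and the CDH4 and CDH13 markers lie on opposite sides of 1.

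Overlapping genes could share reads with these 8, since the strand setting of the counting is not given in the sources used here. VIM-AS1, an antisense RNA (chromosome 10, 17214239 to 17229985, minus strand) that overlaps 1727 bases of VIM, had 40 (control), 27 (shRNA 1) and 0 (shRNA 2) counts. Its ratio was 0.570 with shRNA 1 (0.337 to 0.953), and against a floor of 3 counts it was at least 15.2-fold lower with shRNA 2. The other features that overlap a cadherin held at most 21 counts in any library, a processed pseudogene inside CDH1.

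RefSeq promoter windows of build GRCh38.p14, each 300 bases long around an annotated RefSeq start, were available for 3 of the 8 genes (VIM, CDH2 and CDH4). The VIM window starts upstream of the gene as positioned above, whereas every CDH2 and CDH4 window lies inside the gene's span, at a RefSeq start downstream of the gene's first base. VIM and CDH2 are shown because they had the highest FPKM of the 8 in the control and were lower in both hairpin libraries. The 250 bases before the RefSeq start of VIM (chr10:17227991-17228240, plus strand) and a 30-base stretch of the first CDH2 window (chr18:28177290-28177319, minus strand) read 5′ to 3′, with a GC box (GGGCGG on either strand) in capitals:
VIM: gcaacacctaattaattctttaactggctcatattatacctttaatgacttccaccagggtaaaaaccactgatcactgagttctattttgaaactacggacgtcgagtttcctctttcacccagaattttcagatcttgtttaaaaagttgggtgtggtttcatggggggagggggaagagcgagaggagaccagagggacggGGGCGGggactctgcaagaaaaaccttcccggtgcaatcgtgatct
CDH2: ctccctgttcccCCGCCCcctccccagctc
The GC box begins at position −46 from the RefSeq start of VIM. In CDH2 it begins at −177 from the RefSeq start of that window and lies inside the gene. Of 35116 promoter windows, 45.0% hold these letters. The E-box CAGGTG (or CACCTG), which SNAI and ZEB proteins bind in other promoters, was in neither of these windows nor in the second CDH2 window, and 20.6% of all windows hold it. A CDH4 window holds it 16 bases before its RefSeq start, within the stretch gggactggggtgCAGGTGtgcctggttcag (chr20:61499393-61499422, plus strand). The second CDH2 window holds an AP-1 motif (TGANTCA) 102 bases before its RefSeq start, as aaagggatcagTGAATCAgatgtaataagg (chr18:28036725-28036754, minus strand); 7.71% of all windows hold one. These are matches of letters only.

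Levels of different genes were compared per length, within a library, where the scaling between libraries cancels. The sum of the epithelial cadherins CDH1 and CDH3 over that of the mesenchymal cadherins CDH2 and CDH11, in FPKM, was 0.835 (control), 39.2 (shRNA 1) and 217 (shRNA 2). The ratio was thus 47.0-fold higher than the control value with shRNA 1 and 259-fold higher with shRNA 2, or 6.79 ± 1.74 on the log2 scale (SD, n = 2). With 1 control library this change has no test. The size with shRNA 2 rests on a denominator of few reads: with 1 FPKM added to each sum the ratio was 0.840, 21.7 and 43.2, a log2 change of 4.69 with shRNA 1 and 5.69 with shRNA 2 in place of 5.55 and 8.02. CDH1 over CDH2 alone was 0.253, 18.4 and 91.8. In counts, CDH1 over CDH2 was 72.6-fold higher than the control value with shRNA 1 (95% counting interval 60.2 to 88.2) and 362-fold higher with shRNA 2 (238 to 581).

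All 4 pairs of one of these epithelial and one of these mesenchymal cadherins had a higher ratio in both hairpin libraries. This follows from the directions of the single genes and adds no support, so only the sizes are of interest. CDH3 over CDH2 was 0.612, 23.4 and 157 in FPKM. CDH1 over CDH11 was 7.09, 277 and 620, and CDH3 over CDH11 was 17.1, 352 and 1061. In the control CDH1 and CDH3 thus exceeded CDH11, and CDH2 alone among the 7 cadherins exceeded them. A wider denominator of CDH2, CDH4, CDH6, CDH11 and CDH13 gave 0.644, 5.21 and 5.26, a change of 8.09-fold and 8.17-fold that was nearly equal for the hairpins, since CDH4 and CDH13 make up most of it once CDH2 is low.

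The deposited FPKM uses a length that bears on these levels. For 86.5% of 10869 genes with over 100 control counts, the length implied by FPKM and counts matched, within 1%, the summed length of all distinct annotated exons of the gene in GENCODE release 29, in which overlapping exons count more than once. For 6.09% it matched the merged exons. The implied length was 14465 bases for CDH1 and 6397 for CDH2, against 6177 and 4950 bases of merged exons, so FPKM lowers CDH1 relative to CDH2. Per kilobase of merged exons, a scale added after the data were seen, the ratio of CDH1 and CDH3 to CDH2 and CDH11 was 1.13 in the control, above 1 instead of below it, and 56.8 and 304 with the hairpins. CDH1 over CDH2 was then 0.459, 33.3 and 166. The change of a single pair over the control is the same on every length scale.

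**Figure D3:**
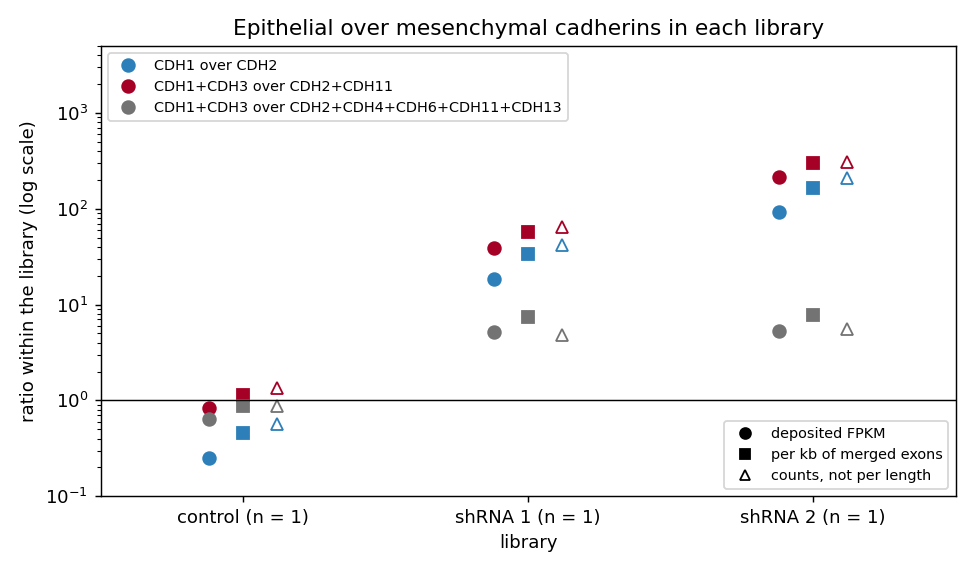
Ratio of epithelial to mesenchymal cadherins within each library on a log scale, by gene set (colour) and by level unit (marker), with a line at 1. The control lies between 0.253 and 1.34 over all sets and units, and every hairpin value lies above 4.8.

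The summed FPKM of the 7 cadherins was of like size in the libraries, 68.9 (control), 55.1 (shRNA 1) and 62.8 (shRNA 2). Its make-up differed. CDH2 held 45.3% (control), 2.01% (shRNA 1) and 0.338% (shRNA 2) of it. CDH1 held 11.5%, 36.9% and 31.0%, and CDH3 27.7%, 47.0% and 53.0%. CDH3 led both hairpin libraries by FPKM, though per kilobase of merged exons CDH1 led with shRNA 1 (48.5% against 39.8%). CDH13 held 5.53%, 9.11% and 5.27%, and CDH4 5.76%, 4.15% and 10.3%. These 7 genes made up 93.5%, 92.1% and 91.9% of the FPKM of all 23 genes named CDH with a number in the table.

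**Figure D4:**
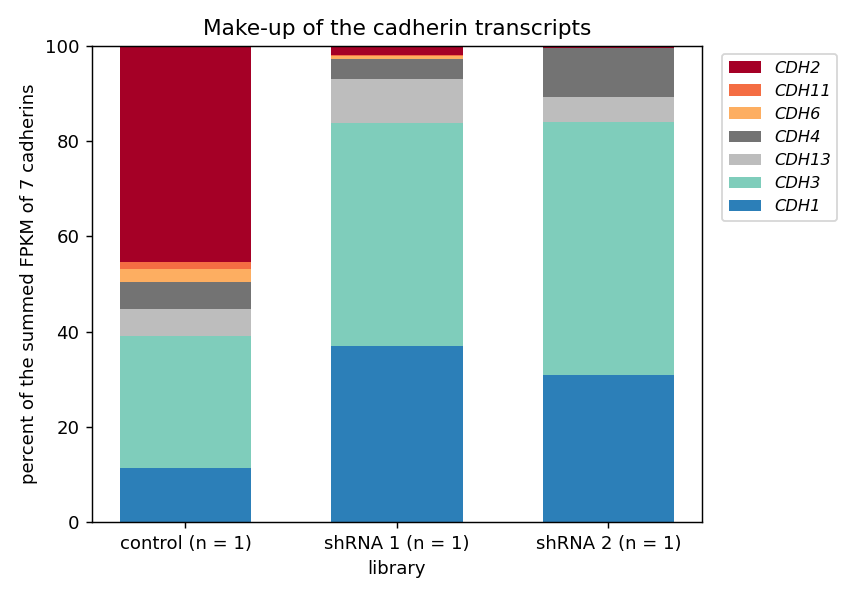
Stacked bars of each cadherin's share of the summed FPKM of the 7 cadherins in each library. CDH2 takes 45.3% of the control bar and 2.01% and 0.338% of the hairpin bars, where CDH1 and CDH3 together take 83.9% and 84.0% against 39.2% in the control.

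Vimentin and N-cadherin were low in the same libraries but not in equal measure. VIM over CDH2 in FPKM was 1.46 (control), 5.35 (shRNA 1) and 4.41 (shRNA 2), which was 3.67-fold (3.03 to 4.43) and 3.03-fold (1.93 to 4.74) above the control. CDH2 was therefore lower than VIM relative to the control with either hairpin. CDH2 over CDH11 was 28.0, 15.0 and 6.76 in FPKM, 0.537 (0.337 to 0.892) and 0.242 (0.106 to 0.602) of the control. Against the keratins KRT8, KRT18 and KRT19, the filament proteins of simple epithelia, VIM had an FPKM ratio of 0.200 (control), 0.0141 (shRNA 1) and 0.00465 (shRNA 2). The summed RNA of these keratins thus exceeded VIM RNA in every library, the control included. In the control KRT18 (41.9 FPKM) stood below VIM (45.5), and KRT8 (52.5) and KRT19 (133) stood above it. Reads of these keratins may be shared with their many pseudogenes.

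The hairpin libraries differed between themselves for most of these genes. In 5 of the 8 they stood at least 2-fold apart, against 12.8% of all genes tested. In 4 of these, CDH2, CDH6, CDH11 and VIM, shRNA 2 was the lower (4.48% of all genes), and in CDH4 it was the higher. shRNA 2 held 18.3% of the shRNA 1 level of CDH2 (ratio 0.183, interval 0.111 to 0.290), 15.1% of that of VIM (0.151, 0.127 to 0.179) and 3.32% of that of CDH6 (0.0332, 0.00673 to 0.100). For CDH1 and CDH3 the hairpin libraries were close, at ratios (shRNA 2 over shRNA 1) of 0.914 (0.878 to 0.951) and 1.23 (1.18 to 1.28). With 1 library for each hairpin these gaps have no replicate check.

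**Figure D5:**
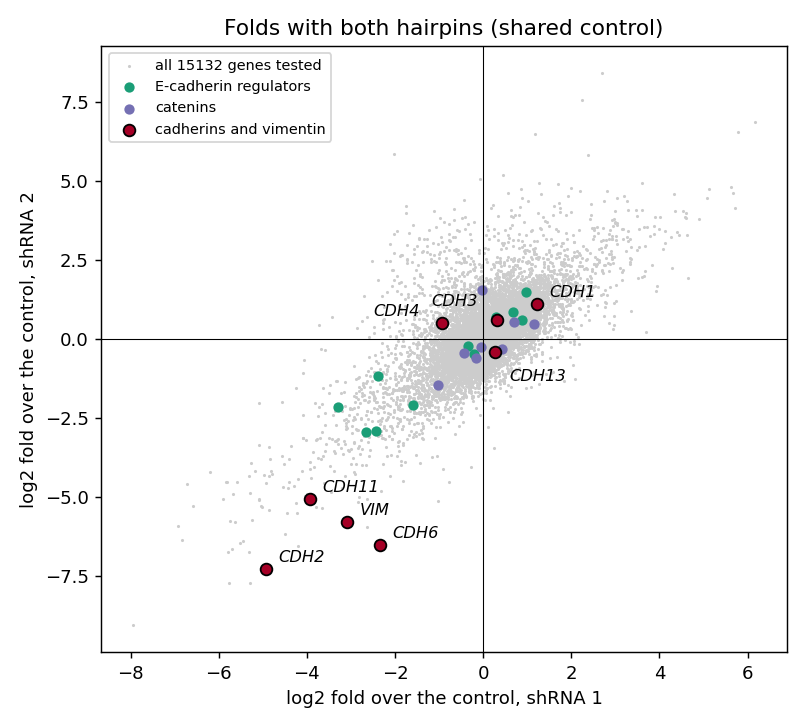
Log2 fold over the control with shRNA 1 (horizontal axis) and shRNA 2 (vertical axis) for all 15132 genes tested (grey), cadherins and vimentin (red), E-cadherin regulators (green) and catenins (purple). CDH2, VIM, CDH11 and CDH6 lie at the lower left edge, and CDH4 and CDH13 lie close to the centre in opposite quadrants; both axes share the control.

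Genes whose pair of log2 folds lay nearest to that of a member were sought among 13968 named genes, by Euclidean distance over the 2 hairpin libraries. Nearest to CDH2 were C5orf46 (distance 0.56), the hedgehog-binding protein gene HHIP (0.64), the gelatinase gene MMP2 (0.95) and the gap junction gene GJA1 (0.99). Nearest to VIM were PTHLH (0.47), which encodes parathyroid hormone-like hormone, MYOCD (0.68), a coactivator of smooth muscle genes, the collagen gene COL6A3 (0.71) and ANGPTL4 (0.84). Nearest to CDH1 were BCL3, AKNA, CCDC66 and FBXO15, at distances of 0.01 to 0.03. Likeness over 2 folds that share a control is a description of these libraries.

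Catenins are the cytoplasmic partners of cadherins. Of 11 listed, 8 were tested, both hairpins put 1 at least 2-fold lower and none higher, and none passed edgeR's test. Of all genes tested, 4.5% were lower and 5.29% higher by that rule, so 1 gene says little of the list. That gene was CTNNB1, which encodes beta-catenin, with counts of 15865, 9204 and 6584 in the order control, shRNA 1, shRNA 2 (log2 folds −1.03 and −1.45; edgeR adjusted p = 0.372). The list medians were −0.05 and −0.28, and the first turns to 0.09 with library totals as the scaling. Of 12 nectins and actin linkers of adherens junctions, all tested, none was 2-fold away with both hairpins; the alpha-actinin genes ACTN4 (−0.15 and −0.42) and ACTN1 (−0.94 and −1.07) had the highest mean CPM of the list. Its medians were −0.14 and −0.22.

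Other cadherins were mostly low. Of 21 listed, 7 were tested and CDH23, the cadherin of hair cell tip links, alone was 2-fold higher with both hairpins. It had 18, 150 and 97 counts (edgeR adjusted p = 0.264). None was lower by that size, and 5.29% of all genes tested were higher by it. CDH7 and CDH9 had no count in any library. The list medians were 0.69 and 0.47.

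Of 8 proteases and other genes of cadherin shedding and turnover, 6 were tested. By 2-fold or more, 2 were lower in both hairpin libraries, against 4.5% of all genes tested. MMP9, a gelatinase, fell to 38 and 25 counts from 1275 in the control (log2 folds −5.23 and −5.75) and passed edgeR's test (adjusted p = 0.0458), a call that limma-voom and the other filters of low counts did not make and that DESeq2 made (adjusted p = 4.7e-20). MMP14, a membrane-bound metalloproteinase, had 7760, 3039 and 2981 counts (−1.59 and −1.56; edgeR adjusted p = 0.175, DESeq2 adjusted p = 0.00732). Among all genes tested, edgeR passed 0.0397% and DESeq2 3.51%. The list medians of −0.04 and −0.18 turned to 0.10 and 0.02 with library totals as the scaling. Of 11 other filament genes and their linkers, 7 were tested and none was 2-fold away with both; the plakin gene PLEC stood at −0.46 and −0.34 and KRT19 at 1.11 and −0.30. Their median with shRNA 2 was −0.36, and that with shRNA 1 was 0.14 with library totals and below 0 otherwise.

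Of 11 regulators of E-cadherin, all tested, 5 were lower by 2-fold or more in both hairpin libraries, against 4.5% of all genes tested; none was higher and none passed edgeR's test. Ordered by the smaller of their folds, the first 4 were the repressor genes SNAI1 (296, 54 and 42 counts; log2 folds −2.65 and −2.94), ZEB2 (118, 24 and 16; −2.44 and −2.92) and ZEB1 (116, 12 and 28; −3.30 and −2.16), and TWIST2 (436, 171 and 116; −1.58 and −2.08), which encodes a helix-loop-helix factor of mesenchyme. The fifth was SNAI2, another Snail family repressor (1408, 318 and 703 counts; −2.38 and −1.18), named after its values were seen. The smallest edgeR adjusted p among these 5 was 0.120, for SNAI1, which alone of them passed with DESeq2 (adjusted p = 0.00341). The other 6, named after their values were seen, were within 2-fold with at least 1 hairpin. Above the control with both were OVOL1 (0.97 and 1.48), ESRP1 (0.89 and 0.59), ESRP2 (0.67 and 0.86) and GRHL2 (0.30 and 0.68). Below it with both were TWIST1 (−0.20 and −0.48) and OVOL2 (−0.34 and −0.21). The list medians of −0.34 and −0.48 thus pool genes of both directions.

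Markers of other cell types were read in the same libraries, because fewer cells of a type and less RNA per cell cannot be told apart in bulk RNA. Of 9 fibroblast markers, 3 were tested: COL1A1 (5253, 328 and 162 counts), PDGFRB (152, 15 and 31) and FAP (102, 8 and 21). Like CDH2, CDH11 and VIM, each stood below the control by 2-fold or more in the shRNA 1 and in the shRNA 2 library. So did 4.5% of all genes tested. PDGFRB (10.0, 0.835 and 1.80 CPM) and FAP (6.72, 0.445 and 1.22 CPM) reached the filter of 1 CPM mostly through the control, so their direction adds little. The summed level of the list was 366 CPM (control), 19.8 (shRNA 1) and 13.0 (shRNA 2), of which COL1A1 made 346, 18.3 and 9.39 CPM. None of the 3 passed edgeR's test, and COL1A1 passed with DESeq2 (adjusted p = 1.4e-16), as did 3.51% of all genes tested. The other 6 fibroblast markers had at most 20 counts in any library. Of 8 endothelial markers 3 were tested and 1, TIE1, was at least 2-fold lower with both hairpins, against 4.5% of all genes tested. TIE1 (55, 10 and 12 counts, log2 folds −2.47 and −2.20) also reached the filter mostly through the control. Of the other 2 tested, named after their values were seen, CDH5 had 18, 42 and 66 counts and KDR 13, 4 and 41. KDR reached the filter mostly through the shRNA 2 library. The list summed to 8.63, 4.51 and 9.73 CPM. Of 7 leukocyte markers 3 were tested, with sums of 132, 130 and 148 CPM, mostly CD74 (1955, 2308 and 2242 counts), and CD68 was at 0 in every library. ITGAM, an integrin gene of myeloid cells, had 19, 6 and 288 counts, which was high in the shRNA 2 library alone. It reached the filter mostly through that library. Its log2 folds were −1.60 and 3.62 (edgeR adjusted p = 0.776). Of 4 nerve sheath markers none was tested, and SOX10 and S100B were at 0. The part of any other cell type in the cadherin values was not tested.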

How the data were processed

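TopHat2 2.0.9 and build hg38 are named in the submitters' processing notes; the labels' protocols name a stranded mRNA kit. For the counting tool, strand setting and annotation: not given in the sources used here. The authors deposited 1 table with whole-number read counts and FPKM per gene and library. Its TGFB1 row, broken over 4 lines, was left out. Counts were scaled with TMM (factors 0.924, 1.02 and 1.06) and tested with edgeR 4.0.16 (quasi-likelihood, two-sided, Benjamini-Hochberg threshold 0.05) where a gene averaged at least 1 CPM; DESeq2 1.42.0 and limma 3.58.1 were alternatives. Log2 folds used a prior count of 2. Ratios to the control carry 95% conditional binomial intervals (exact). Changes in a gene pair's ratio carry exact intervals where a count was under 200 and none reached 6000, and otherwise intervals normal on the log scale. They cover counting error only. Deposited FPKM served for levels between genes. Named genes were the 8, LINC00958, antisense RNAs named after a member, up to 4 partner genes per list that were 2-fold away with both hairpins (otherwise the 2 of highest level), the 4 nearest in folds and markers. Members and lists were chosen with earlier results of these data known. The edgeR step was run on simulated counts with a set dispersion and the same fold for both hairpins. The hairpin libraries here differ more, so that run checks the code and not the calls.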

Additional observations from a re-analysis of the deposited data

How the results depend on the processing

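Depth limits CDH6 and CDH11 with shRNA 2, which rest on 3 and 9 counts. The group test passed 6 genes; DESeq2 passed 531 (1411 at unadjusted p below 0.05), while limma-voom (1424), edgeR without a filter (1461) and edgeR with a filter of 5 CPM (1240) passed 0. Of the 8 genes, CDH2 and CDH11 passed with DESeq2 and none with any other test. The cause of these differences was not tested. Genes 2-fold away with both hairpins numbered 1481 (800 higher, 681 lower), 2805 without a filter (1280 and 1525) and 979 at 5 CPM, of which 443 were lower. With 1 hairpin library left out, the rule asks for 2-fold with the remaining hairpin alone and is looser. Genes that met it numbered 2315 to 3287 (1199 to 1962 higher, 1116 to 1325 lower). Library totals as the scaling put 65.1% of the genes 2-fold away with both hairpins higher, against 54.0%. That scaling moved the median log2 fold of all genes to 0.14 and 0.24. CDH1, CDH3, CDH2, CDH11, CDH6 and VIM kept their direction under every scaling, filter, prior count, test and single hairpin. Leaving out 1 hairpin library, the log2 fold of CDH4 was −0.93 to 0.50 and that of CDH13 −0.41 to 0.26, and CDH13 turned to 0.10 with library totals. The log2 change of the cadherin ratio, 6.79, was 5.55 to 8.02 with 1 hairpin library left out, 5.19 with 1 FPKM added to each sum and 3.02 with the wider mesenchymal set, as CDH4 and CDH13 entered the denominator. No paired analysis was possible because the control group holds 1 library and no pairing with a hairpin library is named.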
